A study of Mus musculus with 52 samples.

Results

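Leydig cells lie between the seminiferous tubules of the testis and make testosterone. In these cells luteinizing hormone binds its receptor, cyclic AMP rises, and cholesterol is carried into the mitochondrion, where its side chain is cut to give pregnenolone. Enzymes of the endoplasmic reticulum then turn pregnenolone into testosterone, which Sertoli and peritubular cells need to sustain sperm formation.

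The genes described here are 10 genes of this pathway, a list of names set with earlier results of these data known: the receptor Lhcgr, the cholesterol genes Scarb1 and Star, the enzymes Cyp11a1, Hsd3b1, Hsd3b6, Cyp17a1 and Hsd17b3, the secreted peptide Insl3 and the transcription factor Nr5a1. All 10 were found among the 34865 genes listed for testes. The series measured polyadenylated RNA by RNA-seq in male mice with and without Tug1, a long noncoding RNA gene, in 52 samples, of which 46 lie behind the values used here. In Tug1-/- mice (allele Tug1_tm1.1Vlcg) a lacZ reporter took the place of the gene body while the promoter was kept. Rescue mice carried the same allele on both chromosomes together with tg(Tug1), a Tug1 cDNA under a tetracycline-responsive element that had integrated at random in 2 founder lines, and CAGs-rtTA3, a ubiquitously driven activator, and they were fed doxycycline. Testes came from 4 wild type, 4 Tug1-/- and 3 rescue males. Spleen, liver, heart and eyes, and fibroblasts grown from mouse embryos (MEFs, primary cultures), came from 3 wild type and 3 Tug1-/- males each, and prostate from 3 and 2. All these animals were listed as of C57BL/6J/129S6 background. The study's methods instead backcrossed the allele to C57BL/6J, and took the activator of rescue from a strain with FVB in its name. For testes the labels add "no Neo" in wild type and "Neo, LacZ" in Tug1-/- and rescue, Neo being a resistance gene of the targeting construct. The study's methods describe mice freed of this gene by a Cre cross, so the label and the methods differ, and what the label marks goes with the loss of Tug1. The transgenes, the doxycycline diet and any difference of background in rescue cannot be told apart either. Library codes of the testes samples fall into 2 runs of numbers, each with all 3 groups, which the group means do not separate. Ages of the males that gave tissues are not given in the sources used here.

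The values used are the authors' mean per group in TPM (transcript abundance from reads per length of the gene, scaled to the same total in each library), with no value per animal. The errors and p-values in the tables belong to the authors' own comparisons and were not used, so no difference below is set against the spread between animals, a single animal can set a mean, and no test was made. A ratio is the log2 of one mean plus 0.1 TPM over another mean plus 0.1 TPM, and a gene is called higher or lower where its ratio passed 1.2-fold. The background share is the share of all genes with at least 1 TPM in either group that passed the same limit.

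Tug1 itself, the check of the labels, had means of 40.1 TPM in wild type, 0.885 TPM in Tug1-/- and 1.605 TPM in rescue testes. The Tug1-/- mean was thus 2.21% of wild type, and the rescue mean 4.003%. In the other tissues Tug1 lay between 10.1 and 57.5 TPM in wild type and between 0.00832 and 0.237 TPM in Tug1-/-.

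Genes expressed in the epididymis, the duct attached to the testis, stood apart between the testes groups. Lcn5, an epididymal lipocalin, had means of 680.0 TPM in wild type, 0.0155 TPM in Tug1-/- and 0.132 TPM in rescue. Crisp1, a secreted protein that coats sperm in the duct, had means of 427 TPM, 760.5 TPM and 0.348 TPM in the same order. A list of 10 such genes, written after these values were seen, summed to 3584 TPM (0.358% of the total) in wild type, 817 TPM (0.0817%) in Tug1-/- and 18.1 TPM (0.00181%) in rescue. The list is only part of the epididymal transcripts. Its sum was taken out of the total in a step added after the data were seen. Of the 10 genes, 7 were then higher in Tug1-/- over wild type, 0 in rescue over Tug1-/- and 5 in rescue over wild type. These counts were the same as below. That step changes only the scaling, and any other part of epididymal transcripts in the results below was not tested.

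Hsd3b1 and Hsd3b6 are neighbours on chromosome 3 that code for 3β-hydroxysteroid dehydrogenases, which convert pregnenolone to progesterone and its relatives. They are shown because their levels parted in rescue testes and because similar copies can trade reads. Their coding sequences are each 1119 bases long in GENCODE vM21 and 89.99% identical. The first 90 coding bases follow, with the 12 bases that differ between the genes in capitals.
Hsd3b1: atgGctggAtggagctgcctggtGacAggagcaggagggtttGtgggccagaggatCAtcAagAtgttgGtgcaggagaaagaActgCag
Hsd3b6: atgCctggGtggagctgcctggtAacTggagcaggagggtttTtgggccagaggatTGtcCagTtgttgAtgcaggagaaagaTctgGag
No stretch of 100 bases was shared between transcripts of these genes, so a read of that length can be assigned to one of them. Hsd3b6 shared 48 of its 1801 stretches of 100 bases with Hsd3b2 and 56 with Hsd3b3. Hsd3b2 was listed at 0.0620, 0.0585 and 0.0351 TPM in wild type, Tug1-/- and rescue testes.

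Promoters were present in the RefSeq table (GRCm38.p6) for 6 of the 10 genes. The 150 bases before the start are given for Hsd3b1 (chr3:98859795-98859944, minus strand), Hsd3b6 (chr3:98814444-98814593, minus strand) and Insl3 (chr8:71689064-71689213, plus strand), whose patterns in testes differed. They are written 5′ to 3′ on the gene's strand with the GATA motif AGATAA, on either strand, in capitals.
Hsd3b1: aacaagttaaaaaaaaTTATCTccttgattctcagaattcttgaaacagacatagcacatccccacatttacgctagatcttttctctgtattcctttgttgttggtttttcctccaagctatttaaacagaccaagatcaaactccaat
Hsd3b6: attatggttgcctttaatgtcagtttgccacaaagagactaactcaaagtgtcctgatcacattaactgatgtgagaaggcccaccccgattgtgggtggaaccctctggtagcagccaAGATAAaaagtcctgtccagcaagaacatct
Insl3: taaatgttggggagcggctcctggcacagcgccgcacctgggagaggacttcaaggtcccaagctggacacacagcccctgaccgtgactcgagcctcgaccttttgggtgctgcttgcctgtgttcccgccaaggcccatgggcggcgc
The motif of GATA factors lay 31 to 26 bases before the start of Hsd3b6 on the gene's strand, and 134 to 129 bases before the start of Hsd3b1 on the other strand. It was found in the 250 bases before 9.99% of 32851 promoters. Neither form of the steroidogenic factor 1 motif (CAAGGTCA, in 1.33% of promoters, and CAAGGCCA, in 1.99%), nor the cyclic AMP element TGACGTCA (1.55%), nor TATAAA (12.4%) was found on either strand in the 250 bases before the 6 genes. The coding stretches of Hsd3b1 and Hsd3b6 were thus far more alike than the 150 bases before their starts, which were 47.5% identical in a global alignment.

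In wild type testes the 10 genes spanned from 6.33 to 235 TPM. Cyp17a1 was highest at 235 TPM, followed by Hsd3b6 at 136 TPM, Hsd3b1 at 107 TPM and Insl3 at 56.9 TPM. Hsd17b3 (45.0 TPM), Cyp11a1 (43.2 TPM), Star (41.5 TPM) and Scarb1 (40.9 TPM) lay close together. Nr5a1 had 20.2 TPM and Lhcgr 6.33 TPM. Cyp17a1 held rank 1, Scarb1 rank 8, Nr5a1 rank 9 and Lhcgr rank 10 in all 3 testes groups, whereas Hsd3b6 held rank 2 in wild type and Tug1-/- and rank 4 in rescue. Without values per animal, neighbours in this order cannot be separated from their spread. The plot of group means shows these levels side by side.

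**Figure D1:**
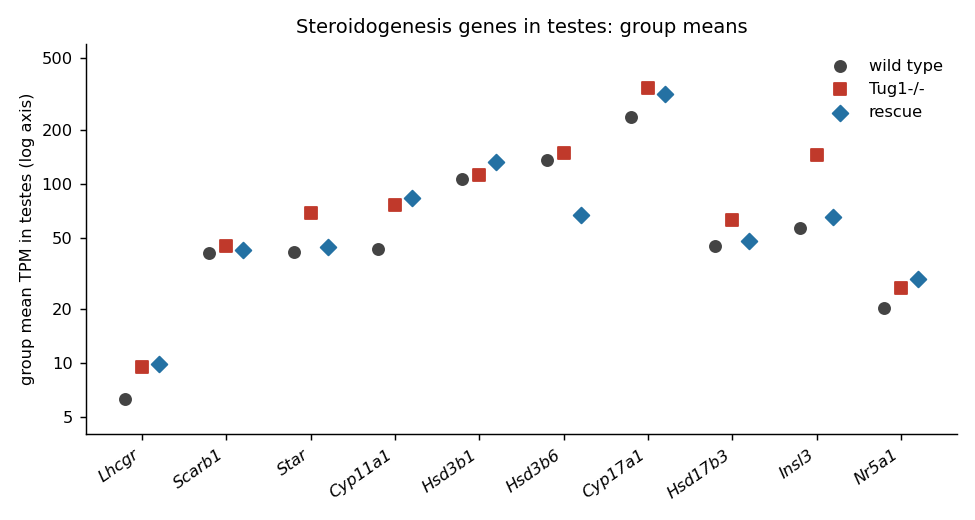
Mean TPM (log axis) of each of the 10 genes in wild type (circles), Tug1-/- (squares) and rescue (diamonds) testes, with 1 point per group mean and no error drawn. The Tug1-/- square sits above the wild type circle for every gene, by most for Insl3 (143.75 against 56.9 TPM), and the rescue diamond of Hsd3b6 (67.1 TPM) sits below both other groups.

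All 10 genes had a higher mean in Tug1-/- than in wild type testes, and 7 of them were past 1.2-fold. These were Insl3, Cyp11a1, Star, Lhcgr, Cyp17a1, Hsd17b3 and Nr5a1, while Scarb1, Hsd3b6 and Hsd3b1 were within the limit. The median ratio of the 10 genes was 0.51 on the log2 scale, beside a median of 0.03 over the 22378 genes with at least 1 TPM. The background share was 10.2% of genes higher, and 8.24% lower, where none of the 10 was found. Past 1.5-fold, 3 of the 10 (Insl3, Cyp11a1 and Star) were higher and none lower, beside background shares of 2.75% and 3.51%. Set relative to the median of the Sertoli cell list, 3 of the 10 were past 1.2-fold, the median was 0.18, and Hsd3b1 (-0.25), Hsd3b6 (-0.21) and Scarb1 (-0.18) lay below 0. In whole testis, more Leydig cells among the others and more RNA per Leydig cell cannot be told apart.

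In rescue testes 4 of the 10 genes were lower than in Tug1-/- and none was higher. The 4 were Hsd3b6, Insl3, Star and Hsd17b3, and the median ratio was -0.10, beside 0.01 over 22180 genes. The background share was 9.9% lower and 5.76% higher. Past 1.5-fold, Hsd3b6, Insl3 and Star remained lower, 3 of 10 beside a background of 3.22%, and none was higher, beside 1.42%. The 3 testes comparisons share their groups, so each gene's own values are given side by side below.

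Against wild type, 5 of the 10 genes were higher in rescue testes (Cyp11a1, Lhcgr, Nr5a1, Cyp17a1 and Hsd3b1) and 1, Hsd3b6, was lower. The background share was 11.2% higher and 11.7% lower over 22393 genes, and the median ratio was 0.25 beside 0.04 over all genes. Past 1.5-fold, Cyp11a1 and Lhcgr were higher (2 of 10, background 2.79%) and Hsd3b6 lower (1 of 10, background 5.14%). Relative to the Sertoli list the median was -0.16, with 1 gene higher and 4 lower. Relative to a list of spermatocyte genes 3 were higher, without Cyp17a1 (0.26) and Hsd3b1 (0.14), and the median was 0.0917, and relative to all genes 4 were higher, without Hsd3b1 (0.26). The plot of ratios shows the 3 comparisons for each gene.

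**Figure D2:**
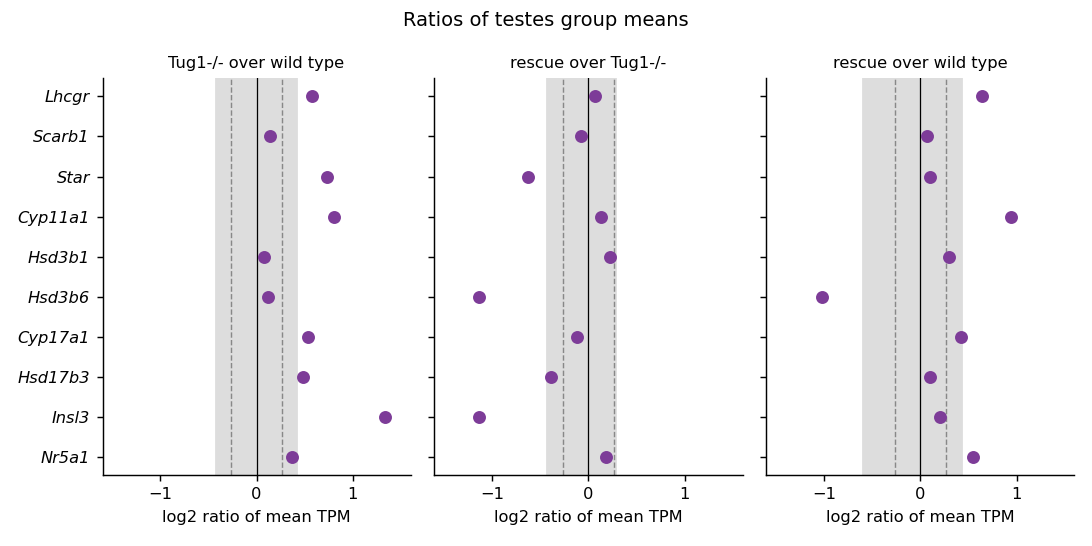
Log2 ratio of mean TPM for each of the 10 genes in the 3 comparisons of testes groups, with dashed lines at 1.2-fold and a grey band holding the middle 90% of all genes with at least 1 TPM. Points sit to the right of the band for Insl3, Cyp11a1, Star, Lhcgr, Cyp17a1 and Hsd17b3 in Tug1-/- over wild type, and to its left for Hsd3b6, Insl3 and Star in rescue over Tug1-/-.

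The receptor came first in the order of the pathway. Lhcgr (chr17:88741549-88791976, minus strand) codes for the receptor of luteinizing hormone and had means of 6.33 TPM in wild type, 9.46 TPM in Tug1-/- and 9.93 TPM in rescue. Both mutant groups were above wild type, by 0.57 and 0.64 on the log2 scale, and 2.83% of all genes had a higher Tug1-/- to wild type ratio.

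The genes that carry the receptor's signal differed little. Of 12 genes of the cyclic AMP pathway, 1 was higher in Tug1-/- than in wild type and none was lower, near the background shares of 10.2% and 8.24%, with a median ratio of 0.06. The gene past the limit was Adcy9, an adenylyl cyclase, at 5.46 TPM in wild type, 6.63 TPM in Tug1-/- and 6.12 TPM in rescue. Pde8b, a cyclic AMP phosphodiesterase, had 2.99, 3.32 and 2.46 TPM in the same order, and was the only list gene lower in rescue than in Tug1-/- (ratio -0.42), 1 of 12 beside a background of 9.9%.

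Cholesterol enters by way of Scarb1 and is moved by Star. Scarb1 (chr5:125277087-125341094, minus strand), the receptor that takes up cholesterol from high-density lipoprotein, had means of 40.9, 45.1 and 42.8 TPM in wild type, Tug1-/- and rescue, and its ratios stayed between -0.08 and 0.14 in the 3 comparisons. Star (chr8:25806555-25815982, plus strand), which brings cholesterol to the inner mitochondrial membrane, had means of 41.5, 68.7 and 44.5 TPM. Star was 65.5% higher in Tug1-/- than in wild type (ratio 0.73), and its rescue mean lay near the wild type mean (ratio 0.10). The quotient of Star over Scarb1 was 1.01 in wild type, 1.52 in Tug1-/- and 1.04 in rescue.

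Other genes of cholesterol supply mostly stayed within the limit in Tug1-/- testes. Of 12, 2 were higher than in wild type (Tspo and Soat1) and 1 was lower (Npc2), near the background shares of 10.2% and 8.24%, with a median ratio of 0.04. Tspo, an outer mitochondrial membrane protein, had 10.3 TPM in wild type, 14.3 TPM in Tug1-/- and 12.2 TPM in rescue, and Soat1, which esterifies cholesterol for storage, had 20.9, 25.2 and 25.1 TPM. Npc2, a cholesterol carrier of lysosomes that is also abundant in the epididymis, had 64.5, 32.6 and 27.9 TPM. The sum of the epididymal list was also highest in wild type and lowest in rescue, and its part in Npc2 was not tested. In rescue 3 of the 12 were lower than in Tug1-/- and none was higher, beside 9.9% and 5.76% of all genes. Against wild type 3 were lower and none higher, beside 11.7% and 11.2%. Among them Ces1d, a carboxylesterase, was low in rescue alone, at 32.3, 37.9 and 14.6 TPM (ratio -1.37 to Tug1-/-).

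Cyp11a1 (chr9:58006411-58027023, plus strand) cuts the side chain of cholesterol, the first enzymatic step. Its means were 43.2 TPM in wild type, 75.5 TPM in Tug1-/- and 83.0 TPM in rescue. It was 74.8% higher in Tug1-/- and 92.0% higher in rescue than in wild type (ratios 0.81 and 0.94), and only 0.969% of all genes had a higher rescue to wild type ratio. Thus Cyp11a1 and Star, which act one after the other, parted in rescue: Cyp11a1 over Star was 1.04 in wild type, 1.0996 in Tug1-/- and 1.87 in rescue. An overlapping noncoding gene on the same strand, Gm17322, covers 3.02% of the exonic bases of Cyp11a1 and had means from 0.702 to 0.887 TPM.

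Of 4 genes for proteins that feed electrons to these enzymes, 2 were higher in Tug1-/- than in wild type and none was lower, beside 10.2% and 8.24% of all genes. These were Fdxr and Fdx1, the mitochondrial reductase and ferredoxin that serve Cyp11a1. Fdxr had 21.6, 27.6 and 25.3 TPM in wild type, Tug1-/- and rescue, and Fdx1 had 24.5, 30.3 and 26.3 TPM. Cyb5a, a cytochrome that aids Cyp17a1, had 28.5, 32.4 and 29.3 TPM, and Por, the reductase of the endoplasmic reticulum, had 13.1, 13.8 and 13.6 TPM. In rescue none of the 4 was past the limit relative to either other group.

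Hsd3b1 and Hsd3b6 make enzymes of the same step. Hsd3b1 (chr3:98852194-98859794, minus strand) had means of 107, 112 and 131 TPM in wild type, Tug1-/- and rescue. Hsd3b6 (chr3:98805504-98814443, minus strand) had means of 136, 147 and 67.1 TPM. Both differed by less than 1.2-fold between Tug1-/- and wild type, with ratios of 0.08 and 0.12. In rescue Hsd3b6 differed from Tug1-/- by -54.5% (ratio -1.14) and its mean was 49.3% of wild type, while Hsd3b1 was 23.2% above wild type (ratio 0.30). The quotient of Hsd3b6 over Hsd3b1 was 1.28 in wild type, 1.31 in Tug1-/- and 0.511 in rescue. A Hsd3b6 to Hsd3b1 quotient below 1 was therefore seen in 1 of 3 group means.

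Cyp17a1 (chr19:46667165-46672974, minus strand) turns progestins into androgens and was the most abundant of the 10 genes. Its means were 235 TPM in wild type, 341 TPM in Tug1-/- and 315 TPM in rescue, with ratios of 0.54 in Tug1-/- and 0.42 in rescue over wild type. Hsd17b3 (chr13:64058266-64089230, minus strand), which makes testosterone from androstenedione, had means of 45.0, 62.9 and 48.1 TPM. It was 39.7% higher in Tug1-/- than in wild type (ratio 0.48) and, in rescue, lay 0.39 below Tug1-/- on the log2 scale.

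Among other steroid enzymes no single direction was seen. In Tug1-/- testes 3 of 9 genes with at least 1 TPM were higher than in wild type and 2 were lower, beside 10.2% and 8.24% of all genes, with a median ratio of 0.12. Srd5a2, which makes dihydrotestosterone and is abundant in the epididymis, had 17.8 TPM in wild type, 1.88 TPM in Tug1-/- and 1.77 TPM in rescue. The part of epididymal transcripts in these values was not tested. Srd5a1, the other 5α-reductase, had 5.27, 3.69 and 4.38 TPM. The genes higher in Tug1-/- were Sult1e1, an estrogen sulfotransferase of Leydig cells (42.4, 55.1 and 32.6 TPM), Hsd17b11 (9.21, 11.8 and 10.9 TPM) and Akr1c14 (1.64, 2.06 and 2.26 TPM). Sult1e1 was also among the genes lower in rescue than in Tug1-/- (ratio -0.76), as was Hsd17b7 (3.88, 4.22 and 2.91 TPM).

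Insl3 (chr8:71689214-71690575, plus strand) codes for a peptide hormone of Leydig cells that guides descent of the testis and marks mature Leydig cells. It had the largest ratio of the 10, with means of 56.9 TPM in wild type, 144 TPM in Tug1-/- and 65.5 TPM in rescue. Insl3 was 2.52-fold higher in Tug1-/- than in wild type (ratio 1.33), and 0.536% of all genes had a higher ratio. In rescue it lay 1.13 below Tug1-/- on the log2 scale and 0.20 above wild type. Relative to Cyp17a1 it stood at 0.242 in wild type, 0.421 in Tug1-/- and 0.208 in rescue, so its excess in Tug1-/- went beyond that of the most abundant enzyme.

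The whole Insl3 gene lies inside Jak3 on the same strand, and 404 of its 623 exonic bases (64.8%) are also exon of Jak3, a kinase of immune cells. How reads over such bases were assigned is not given in the sources used here, so the level of Insl3 is uncertain. Jak3 had means of 5.31, 6.74 and 5.99 TPM in wild type, Tug1-/- and rescue testes, far below Insl3 in each group. In spleen the order was the other way, with Jak3 at 44.0 TPM and Insl3 at 4.27 TPM in wild type.

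Nr5a1 (chr2:38692656-38714542, minus strand) codes for steroidogenic factor 1, which activates genes of the pathway in Leydig cells and is also made by Sertoli cells. Its means were 20.2, 26.1 and 29.5 TPM, with ratios of 0.37 in Tug1-/- and 0.55 in rescue over wild type. Of 10 other regulators with at least 1 TPM, 3 were higher in Tug1-/- than in wild type (among them Nr0b1 and Gata4) and 1 was lower (Cebpb), beside 10.2% and 8.24% of all genes, with a median ratio of 0.08. Nr0b1, a repressor that binds steroidogenic factor 1, had 19.4, 24.96 and 27.4 TPM, and Gata4, a zinc finger factor of gonadal somatic cells, had 15.4, 18.6 and 21.2 TPM. Nr5a1, Nr0b1 and Gata4 were each lowest in wild type and highest in rescue. Relative to the median of the Sertoli list, the ratios of Nr5a1 over wild type were 0.04 in Tug1-/- and 0.13 in rescue.

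Summed over the 10 genes, testes had 732 TPM in wild type, 1033 TPM in Tug1-/- and 837 TPM in rescue. The make-up of that sum differed between groups. Insl3 made 7.78% of it in wild type, 13.9% in Tug1-/- and 7.83% in rescue. Hsd3b6 made 18.6%, 14.3% and 8.02%, and Cyp11a1 5.90%, 7.31% and 9.92%. Cyp17a1 made 32.1%, 33.1% and 37.6%, and Hsd17b3 stayed between 5.75% and 6.15%. These are shares of group means, in which each library weighs by its own level of these genes, and the plot of shares shows them.

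**Figure D3:**
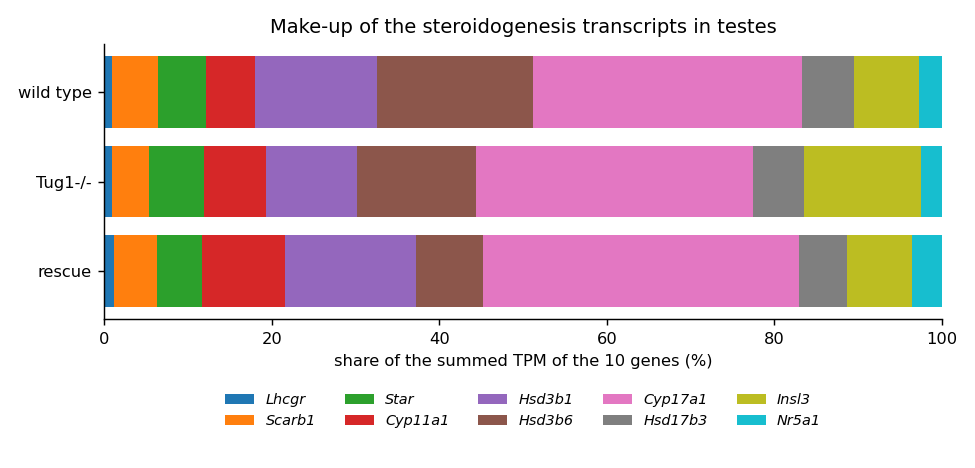
Share of the summed TPM of the 10 genes (%) held by each gene in wild type, Tug1-/- and rescue testes, with 1 bar per group mean and each bar adding to 100%. The Insl3 segment is widest in Tug1-/- (13.9%), and in rescue the Hsd3b6 segment (8.02%) is narrower and the Cyp11a1 segment (9.92%) wider than in the other groups.

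Other genes enriched in Leydig cells were examined as a list. Of 11 with at least 1 TPM, 5 were higher in Tug1-/- than in wild type and none was lower, beside background shares of 10.2% and 8.24%, with a median ratio of 0.16. Fabp3, a fatty acid carrier, had the largest ratio (185, 255 and 205 TPM in wild type, Tug1-/- and rescue), followed by Vcam1, an adhesion protein (24.1, 32.6 and 18.3 TPM). In rescue 5 were lower than in Tug1-/- and none was higher, beside 9.9% and 5.76%. Ptgds, which makes prostaglandin D, had 381, 467 and 169 TPM (ratio -1.46 to Tug1-/-), and Gsta3, a glutathione transferase, had 19.0, 18.8 and 7.15 TPM (ratio -1.38). Prlr, the prolactin receptor, had 7.42, 9.22 and 6.12 TPM. In rescue over wild type 4 of the 11 were lower and 1 was higher, beside 11.7% and 11.2% of all genes. Ptgds, Gsta3, Vcam1 and Prlr were low in rescue against both other groups, as Hsd3b6 was, and so was Ces1d of the cholesterol list. The summed epididymal list was also lowest in rescue (3584, 817 and 18.1 TPM in the same order). Its part in these values was not tested.

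Markers of other steroid-making cells were examined next. Of 4 genes of fetal Leydig cells only Ren1 reached 1 TPM, at 0.924, 1.58 and 0.947 TPM in wild type, Tug1-/- and rescue. Of 5 adrenal genes with at least 1 TPM, 2 were higher in Tug1-/- than in wild type (Mrap and Cyp21a1) and none was lower, beside 10.2% and 8.24% of all genes, and 4 were lower in rescue than in Tug1-/-, beside a background of 9.9%. Cyp21a1, which makes adrenal steroids and is also expressed at low level in mouse testis, had 1.99, 3.12 and 1.22 TPM. Mrap, an accessory protein of the corticotropin receptor, had 4.83, 8.21 and 4.75 TPM, and the receptor gene Mc2r lay at or under 0.0572 TPM. Akr1b7, an aldose reductase of the adrenal cortex, had 6.40, 7.08 and 5.52 TPM, Cyp11b2, the aldosterone synthase, had 1.70, 1.87 and 1.52 TPM, and Cyp11b1, which makes glucocorticoid, had 1.77, 1.63 and 1.61 TPM.

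Markers of Sertoli, peritubular and macrophage cells differed in the same direction as the steroidogenesis genes, whereas those of endothelial cells lay near all genes. In Tug1-/- over wild type testes, 8 of 12 Sertoli cell genes, 6 of 6 peritubular and smooth muscle genes and 7 of 9 macrophage genes were higher, and none of these was lower, beside background shares of 10.2% and 8.24%. Their median ratios were 0.33, 0.47 and 0.40, beside 0.51 for the 10 genes. Of 6 endothelial genes 1 was higher and none lower, with a median of 0.02, and Egfl7 had a ratio of -0.26. Cldn11, a tight junction protein of Sertoli cells, had 94.2, 138 and 148 TPM in wild type, Tug1-/- and rescue, Acta2, smooth muscle actin, had 76.7, 105 and 90.8 TPM, and Cd163, a scavenger receptor of macrophages, had 1.45, 3.16 and 2.32 TPM. The summed Sertoli list had 1048 TPM in wild type, 1076 TPM in Tug1-/- and 1107 TPM in rescue, a smaller change than its median because Clu, its most abundant gene, had 848, 809 and 818 TPM. Summed peritubular genes had 199, 272 and 253 TPM, and summed macrophage genes 122, 163 and 163 TPM. Their part in the ratios of the 10 genes was not tested, beyond the values relative to the Sertoli list given above.

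In rescue over Tug1-/- testes, where the background shares were 5.76% higher and 9.9% lower, these lists differed from one another. Of the Sertoli genes 2 were higher (Amh and Fshr) and none lower, with a median ratio of 0.15, whereas 4 of 6 peritubular genes were lower and none higher, with a median of -0.33. Amh, anti-Müllerian hormone, had 2.21, 3.14 and 4.68 TPM, and Des, the muscle protein desmin, had 4.09, 8.12 and 4.62 TPM. Star and Insl3 were lower in rescue than in Tug1-/- as these 4 peritubular genes were, while Cyp11a1, Lhcgr and Nr5a1 were not. Of 9 macrophage genes 2 were higher and 2 lower, and of 6 endothelial genes none was past the limit. In rescue over wild type (background 11.2% higher and 11.7% lower) 8 of 12 Sertoli, 6 of 9 macrophage, 2 of 6 peritubular and 1 of 6 endothelial genes were higher, and 1 endothelial gene, Egfl7, was lower (4.70, 3.92 and 3.57 TPM).

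Germ cell genes were examined in the same way. None of 8 spermatocyte, 6 round spermatid and 10 elongating spermatid genes was past 1.2-fold between Tug1-/- and wild type, beside background shares of 10.2% higher and 8.24% lower, with median ratios of 0.09, 0.04 and -0.11. Prm1, a protamine that packs sperm DNA, had 14339, 13386 and 13033 TPM in wild type, Tug1-/- and rescue. Summed elongating spermatid genes made 6.28%, 5.92% and 5.78% of the total. Among 7 spermatogonial genes 1 was past the limit in Tug1-/-, Gfra1, a receptor of spermatogonial stem cells that was lower (11.1, 3.84 and 4.003 TPM). The plot of gene lists sets the 10 genes beside these cell types.

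**Figure D4:**
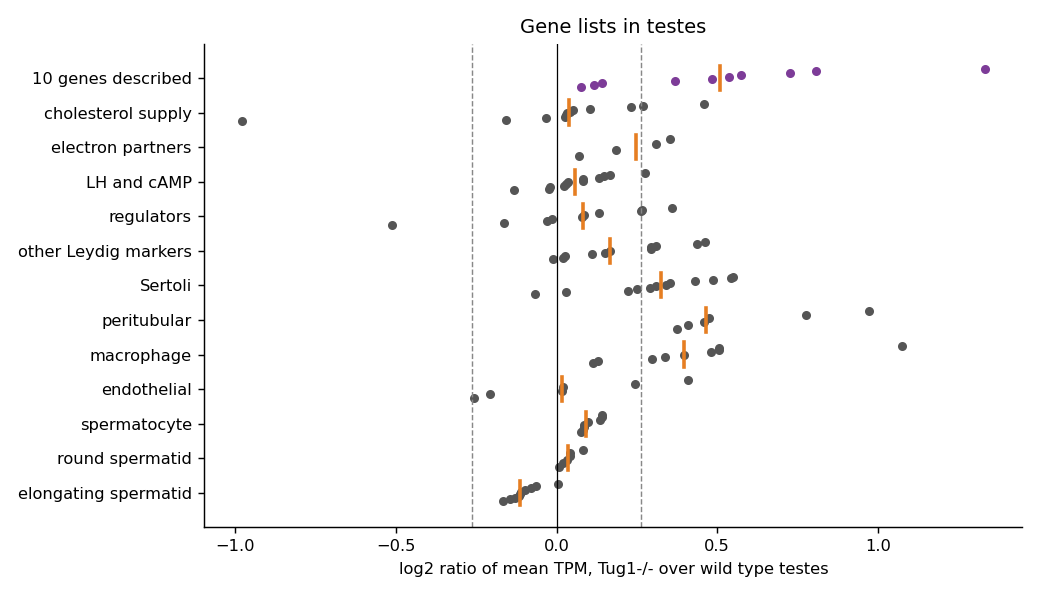
Log2 ratio of mean TPM, Tug1-/- over wild type testes, for the genes of 13 lists with at least 1 TPM in either group, with 1 point per gene, an orange bar at each list's median and dashed lines at 1.2-fold. The 10 genes (purple, median 0.51) all lie to the right of 0, as do the peritubular (median 0.47) and macrophage (0.40) genes and all but 1 of the 12 Sertoli genes (0.33), while the medians of the spermatocyte and spermatid lists lie between -0.11 and 0.09.

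Genes of Sertoli cells that respond to androgen were a readout beyond the Leydig cell. Of 7, 3 were higher in Tug1-/- than in wild type (Tubb3, Rhox5 and Drd4), and 2, among them Cldn3, were lower. Rhox5, a homeobox gene induced by androgen in Sertoli cells, had 35.7, 48.7 and 61.1 TPM in wild type, Tug1-/- and rescue. Tubb3, a tubulin that androgen also induces there, had 37.5, 59.1 and 62.7 TPM. Cldn3, a tight junction protein, had 104, 86.8 and 85.4 TPM. In rescue over wild type 4 of the 7 were higher and 2 lower, with a median ratio of 0.29. The background shares were 10.2% higher and 8.24% lower in Tug1-/-, and 11.2% and 11.7% in rescue, over wild type. The Sertoli list itself was higher in both mutant groups, and its part in this was not tested.

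Outside the testis 4 of the 10 genes reached 1 TPM in no other tissue, and 6 did so in at least 1. The tables list only genes that passed the authors' minimum of reads. Hsd3b1 and Hsd17b3 were listed in testes only, and Hsd3b6 in testes and in MEFs, where its wild type mean was 0.0690 TPM and its Tug1-/- mean 0.113 TPM. Cyp11a1 was next highest in spleen, at 1.42 TPM in wild type, 30.5-fold below wild type testes, and Lhcgr in spleen at 0.237 TPM, 26.7-fold below. Levels in different tissues come from separate libraries each scaled to its own total.

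Star, Nr5a1 and Scarb1 had wild type means above 10 TPM in another tissue. Star was highest in spleen, at 134 TPM in wild type against 109 TPM in Tug1-/-, the former 3.23-fold above wild type testes. Nr5a1, known from the endothelium of the spleen as well as from the gonads, had 14.9 TPM in wild type spleen and 13.6 TPM in Tug1-/- spleen, with a mean normalised count of 897. Spleen thus held high Star and Nr5a1 with little Cyp11a1 (1.42 and 0.827 TPM) and Cyp17a1 (0.285 and 0.116 TPM). Scarb1 was highest in eyes, at 52.0 and 46.3 TPM, and next in liver, at 45.6 and 50.03 TPM. In the other tissues Star was 13.0 and 10.9 TPM in eyes, 5.08 and 4.75 TPM in prostate, 3.47 and 2.81 TPM in MEFs, 2.99 and 2.96 TPM in heart, and 1.70 and 1.55 TPM in liver, so its Tug1-/- mean was above wild type in testes alone.

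The genes with at least 1 TPM were compared between genotypes within each tissue. In spleen 2 of 5 were past the limit, Star (ratio -0.30) and Cyp11a1 (ratio -0.71), both lower in Tug1-/-, beside a background of 34.8% of genes past it in either direction. In MEFs 1 of 2 was past it, Star (ratio -0.30), beside 28.1%. None was in eyes (0 of 2, background 28.9%), heart (0 of 3, 18.6%) or prostate (0 of 2, 23.7%). In liver 1 of 3 was past it, Cyp17a1, beside 23%.

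Cyp17a1 in liver had a wild type mean of 6.75 TPM and a Tug1-/- mean of 34.2 TPM, with a mean normalised count of 778. Its ratio was 2.32, or 5.01-fold, and ranked 12 among 12121 liver genes from the top. With only the mean of 3 livers per genotype, whether 1 animal or all of them carried the excess was not tested. In testes the same gene was 1.45-fold higher in Tug1-/-.

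**Figure D5:**
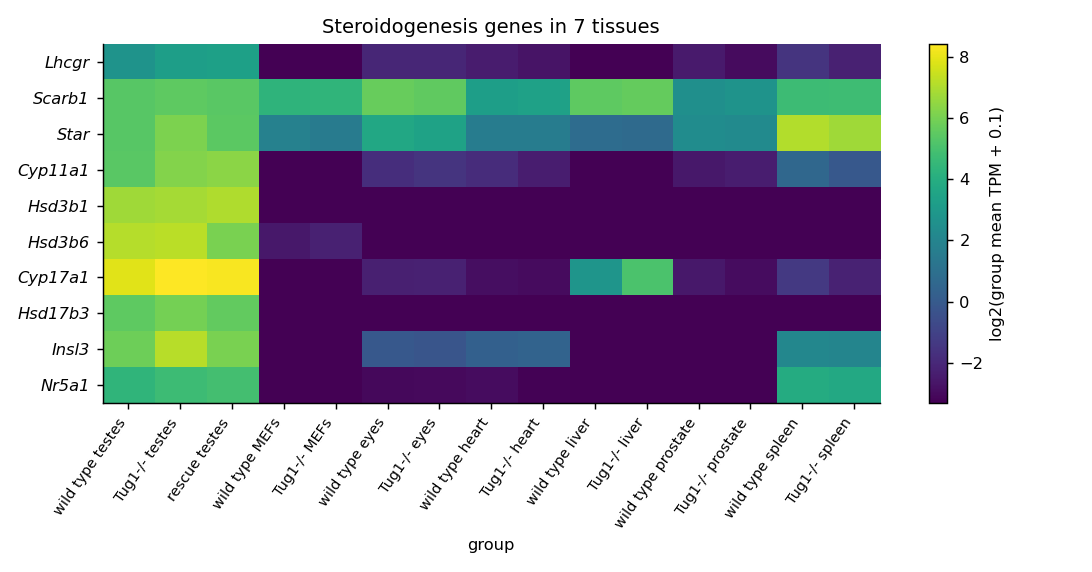
Level of each of the 10 genes, as log2(group mean TPM + 0.1), in the 15 groups of 7 tissues, with genes not listed for a tissue drawn at 0 TPM. Testes columns are bright for all 10 genes, and outside the testis the brighter cells include Star (134 TPM) and Nr5a1 (14.9 TPM) in spleen, Star in eyes (13.0 TPM in wild type), Scarb1 in most tissues and Cyp17a1 in Tug1-/- liver (34.2 TPM).

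The genes whose levels most resembled the median profile of the 10 over these 15 group means were Tuba3a (Pearson's r 0.998), Tbata (0.997), Cdc20b (0.997), 1700064M15Rik (0.997) and Fam71b (0.996), among 22669 genes with at least 1 TPM in a testes group. The likeness rests on being high in 3 testes groups and low in 12 others, and all points share the authors' scaling. Tuba3a, a testis tubulin, had 1806, 1861 and 1978 TPM in wild type, Tug1-/- and rescue testes, and the Tug1-/- to wild type ratios of these 5 genes lay between 0.03 and 0.17. Among the 10 genes themselves r with the median profile was highest for Cyp11a1 (0.994) and lowest for Scarb1 (0.427).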

How the data were processed

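RNA-seq libraries of testes and other tissues were mapped by the authors with STAR to GRCm38 with GENCODE vM16, and uniquely mapped reads were counted with featureCounts. The authors deposited TPM as a mean per group for testes. A second deposited table stacks the same kind of mean for the other tissues, read here as a signal because its columns sum over tissues, with a mean normalised count across libraries. Genes under 3 reads in every replicate had been removed. Both tables also hold the authors' own comparisons (log2 fold changes, standard errors, statistics and p-values), which were not used, and no test was made from the means. Depth per library and the use of strand are not given in the sources used here, so the precision of each mean is unknown. Brain and the F1 hybrid testes were not analysed here.

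Log2 ratios were computed from group means with a pseudocount of 0.1 TPM in Python 3.11.15 (numpy 2.4.6, pandas 2.3.3), over genes with at least 1 TPM in either group. Exact folds set into the means without noise were recovered, which checks the arithmetic and not the reliability of a call. The 10 genes and 18 gene lists were chosen with earlier results of these data known, and the epididymal list after its values were seen. From each list the genes past 1.2-fold were named, at most 4 by size, with other genes of the list named for their role. Clu, Cyp21a1, Mrap and Mc2r were named beside them, and some list genes are not reported here by name. Likeness was Pearson's r over 15 group means. Promoters came from RefSeq (GRCm38.p6). Gene positions are those of the deposited table, and exon overlaps and transcripts come from GENCODE vM21, which gives 8 of the 10 genes the same start and end. Alternatives were other pseudocounts, limits, minimum levels and centrings, and a total without the summed epididymal list.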

Additional observations from a re-analysis of the deposited data

How the results depend on the processing

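Only group means were used, so leaving out a replicate was not run and no replicate error is given. No paired analysis was possible because the tables hold no value per animal. Of 105 alternative counts and medians of the 10 genes, 94 were near the reported value (a count within 1.5 times, a median within 0.1 on the log2 scale). Many of the 105, such as other pseudocounts or a single gene left out, could move little, so the tally is no measure of certainty. Set relative to the Sertoli list, whose medians were 0.33, 0.15 and 0.42, the genes higher in Tug1-/- over wild type fell from 7 to 3 and their median from 0.51 to 0.18, the median of rescue over Tug1-/- went from -0.10 to -0.24, and in rescue over wild type 1 gene was higher in place of 5, 4 were lower in place of 1, and the median was -0.16 in place of 0.25. Hsd3b1 then stood at -0.11 in rescue over wild type, against 0.30. Relative to the spermatocyte list, an alternative added after the data were seen, 3 genes were higher in rescue over wild type, with a median of 0.0917. At 1.5-fold 3 genes were higher in Tug1-/- and 2 in rescue over wild type, and at 1.1-fold 2 were higher in rescue over Tug1-/-. With each of the 10 genes left out in turn the medians ranged from 0.48 to 0.54, from -0.12 to -0.08 and from 0.20 to 0.30. The background share higher in rescue over Tug1-/- was 1.74% over protein-coding genes and 10.4% at a minimum of 0.1 TPM, in place of 5.76%. At that minimum the share lower was 16.4% in place of 9.9% there, 13.2% in place of 8.24% in Tug1-/- over wild type, and 17.9% in place of 11.7% in rescue over wild type.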

Other observations

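Further genes of the endothelial, spermatogonial and epididymal lists, counted or summed above, had the following values. Kdr, a receptor for vascular endothelial growth factor, had 2.02 TPM in wild type, 2.71 TPM in Tug1-/- and 2.45 TPM in rescue testes, while Pecam1 had 1.59, 1.61 and 1.53 TPM and Vwf 4.43, 3.82 and 4.16 TPM. Of 7 spermatogonial genes 3 were higher in rescue than in Tug1-/- and none lower, beside 5.76% and 9.9% of all genes. In rescue over wild type 2 were higher and 1 lower, beside 11.2% and 11.7%. Among them Sall4 and Dmrt1, transcription factors of spermatogonia, were highest in rescue, at 1.53, 1.76 and 2.22 TPM and at 17.7, 19.6 and 24.0 TPM. Adam7, an epididymal metalloprotease gene, had 326, 39.8 and 0.0193 TPM, and Rnase10, another epididymal gene, had 190, 7.93 and 7.79 TPM, so that the epididymal genes did not share 1 ratio between the groups.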
